A study of Saccharomyces cerevisiae with 12 samples.

Results

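The transcriptomes of budding yeast cells carrying a point mutant of Taf14 were compared with those of cells lacking Taf14 altogether. The comparison used 6 of the 12 libraries in the series, chosen by their column names in the count table, 3 from the W81A strain and 3 from the deletion strain. Per the labels, the W81A strain was a taf14 deletant of BY4741 transformed with pRS313-taf14W81A-HA3-SSN6, and the deletion strain was the same deletant with the empty vector pRS313-HA3-SSN6. The other groups of 3 libraries each gave points of reference, the deletant with full-length pRS313-TAF14-HA3-SSN6 (TAF14 strain) and BY4741 with the empty vector (wild type). All 4 groups thus shared the BY4741 background and a pRS313 vector whose name includes HA3-SSN6. BY4741 is a haploid laboratory strain of mating type a. The mutant was expressed from a plasmid in a strain whose chromosomal TAF14 was deleted, and the labels give no copy number. The labels also do not say whether the 3 libraries of a group came from separate cultures, so the p-values measure the spread between these libraries alone. The series describes the mutation as one of the YEATS domain that prevents binding to acetylated histone H3. Setting the W81A strain against the deletion strain asks what Taf14 contributes when its lysine-binding pocket is disabled.

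Taf14 is a small nuclear protein shared by the general transcription factors TFIID and TFIIF, the remodellers SWI/SNF, RSC and INO80, and the histone acetyltransferase complex NuA3. Its amino-terminal YEATS domain holds acetylated and crotonylated lysines of histone H3 in an aromatic pocket, and tryptophan 81 lines that pocket. Its carboxy-terminal domain binds subunits of the complexes that contain it.

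The reference sequence around the mutated codon is shown first, from the R64 (sacCer3) genome, because it places the change that separates the W81A strain from the TAF14 strain. Codons 74 to 88 of TAF14 lie at chrXVI:305622-305666 on the plus strand, and the capitals mark codon 81, which encodes tryptophan.
TAF14 codons 74 to 88: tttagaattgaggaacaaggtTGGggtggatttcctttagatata
The plasmid allele itself was not read here, since the files hold counts per gene.

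Promoter stretches of genes that fell in the W81A strain are shown next, with 1 motif in capitals for each of 4 gene groups. The motifs were searched on both strands in a window from 250 bases before to 50 bases after the annotated gene start, which in this annotation is the start codon. Stretches of 70 bases are written on the strand of the gene, and the reverse complement of a motif is in capitals where the match was on the other strand. The heat shock element was searched as 3 alternating TTC and GAA units, TTC or GAA first, with 2 bases of any kind between units, and 2 matches lie upstream of STI1 (chrXV:380803-380872, plus strand) and 2 that overlap each other upstream of HSP42 (chrIV:806371-806440, plus strand).
STI1: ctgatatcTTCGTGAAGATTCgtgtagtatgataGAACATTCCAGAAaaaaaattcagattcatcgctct
HSP42: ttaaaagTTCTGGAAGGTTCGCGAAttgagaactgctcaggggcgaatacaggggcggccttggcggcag
The proteasome-associated control element, the site of Rpn4, was searched as GGTGGCAAA and is shown for RPT4 (chrXV:813782-813851, minus strand) and RPN12 (chrVI:252377-252446, plus strand).
RPT4: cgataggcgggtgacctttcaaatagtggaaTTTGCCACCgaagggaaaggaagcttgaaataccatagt
RPN12: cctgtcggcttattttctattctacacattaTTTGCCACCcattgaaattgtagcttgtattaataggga
The stress response element, the site of Msn2 and Msn4, was searched as AGGGG and is shown for PGM2 (chrXIII:477786-477855, minus strand) and NTH1 (chrIV:452591-452660, minus strand).
PGM2: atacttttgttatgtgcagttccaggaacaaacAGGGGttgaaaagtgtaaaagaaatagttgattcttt
NTH1: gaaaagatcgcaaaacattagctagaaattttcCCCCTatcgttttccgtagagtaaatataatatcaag
The Gcn4 site was searched as TGACTC and is shown for HIS5 (chrIX:142694-142763, plus strand) and BAT1 (chrVIII:517329-517398, plus strand).
HIS5: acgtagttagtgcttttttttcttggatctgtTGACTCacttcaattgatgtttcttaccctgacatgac
BAT1: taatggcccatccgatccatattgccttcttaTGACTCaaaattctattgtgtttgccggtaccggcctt
A match describes the letters in these windows and not the binding of a factor.

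TAF14 (YPL129W, chromosome XVI 305298-306137) was read in every library first. The W81A libraries had 223, 203 and 192 CPM (counts per 1000000 of the library size after TMM scaling). The deletion libraries had 0.437, 0.199 and 0.484 CPM. The TAF14 strain had 355, 143 and 302 CPM, and wild type had 132, 129 and 148 CPM. The readings followed the labels, with TAF14 high in every W81A library and near 0 in every deletion library. SPO19, the meiosis gene next to TAF14, had 64.4, 57.9 and 60 CPM in W81A and 2.84, 2.89 and 3.1 CPM in deletion libraries, a log2 difference of 4.36 ± 0.40. No plasmid map was used here, so SPO19 sequence on the insert and a change of the chromosomal gene cannot be told apart. HIS3, the marker of pRS313 vectors, had 641, 645 and 671 CPM in W81A and 534, 716 and 641 CPM in deletion libraries, and the groups overlapped (log2 difference 0.05 ± 0.20, adjusted p = 0.858). LEU2, URA3 and MET17, which BY4741 lacks, had 0 counts in all 12 libraries, which allows at most 0.327 CPM in any library. All a-specific markers were read in both strains, as a strain of mating type a should show. Of the alpha-specific markers, the alpha-factor gene MF(ALPHA)1 had at most 0.291 CPM in the 6 libraries, while SAG1 had 25.7, 23.4 and 27.4 CPM in W81A and 27.6, 25.3 and 27.4 CPM in deletion libraries.

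W81A libraries held 9465091, 9099425 and 10225666 counts, and deletion libraries held 9606617, 10747955 and 10766996 counts. Of 6692 gene entries, 5918 passed the filter on low counts and were tested, 5418 off chromosome XII and 500 on it. Chromosome XII genes, those with identifiers starting YLL or YLR, are described apart at the end, because all 3 deletion libraries read them higher as a set. Relative to the wild type mean, the median chromosome XII gene stood at 0.00851, 0.00481 and 0.0195 log2 units in W81A libraries and at 0.438, 0.45 and 0.51 in deletion libraries. This shift separates the same libraries as the allele does, so effects of the allele and of the shift on genes elsewhere cannot be told apart. In the TAF14 strain, replicate 2 carried the same shift (0.545) and replicates 1 and 3 did not (0.0257 and 0.0169). The shift is thus present in 1 library that carries TAF14.

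**Figure D1:**
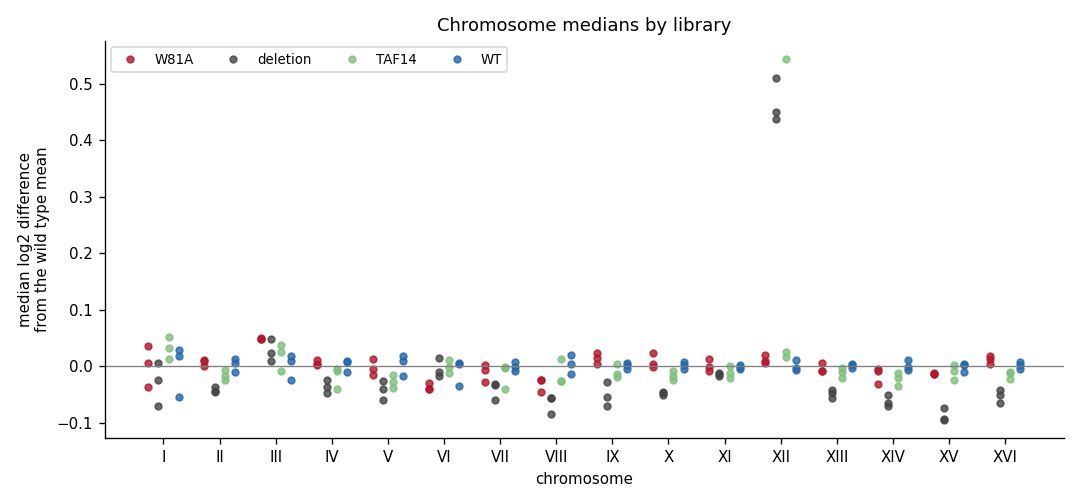
Each point is the median log2 difference from the wild type mean over the tested genes of 1 chromosome in 1 library, with chromosomes on the x axis and groups ordered W81A, deletion, TAF14 and WT within each. On chromosome XII the deletion libraries sit at 0.438 to 0.51 and 1 TAF14 library at 0.545, while the W81A libraries lie between 0.00481 and 0.0195.

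Outside chromosome XII, W81A cells had 1334 genes higher and 1035 genes lower than deletion cells, 24.6% and 19.1% of the 5418 tested. The test was the edgeR quasi-likelihood test with Benjamini-Hochberg adjustment. With chromosome XII left out of the fit, 1136 were higher and 1204 lower. Which direction held more genes thus depended on whether that chromosome was included. A gene was called where the adjusted p was below 0.05, and "rose" and "fell" are used only of called genes, for the W81A strain relative to the deletion strain. Most changes were small. The median size among called genes was 0.4 log2 units, and 85 genes (1.57%) rose and 145 (2.68%) fell by at least 2-fold. Only 17 rose and 12 fell by at least 4-fold. The W81A and deletion libraries did not overlap for 3011 genes (55.6%). Against wild type, the W81A strain had 1540 called genes off chromosome XII (28.4%) and the deletion strain had 2559 (47.2%). The groups share libraries across these comparisons, so their values are given side by side without a measure of overlap.

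The largest fall off chromosome XII was that of NCE103 (YNL036W, chromosome XIV 559814-560479), which encodes carbonic anhydrase, the enzyme that converts carbon dioxide to bicarbonate. It had 61.1, 68.1 and 50.7 CPM in W81A libraries, against 1617, 1535 and 1689 CPM in deletion libraries. The W81A libraries overlapped wild type, at 61.3, 50.3 and 64.7 CPM, and every deletion library stood far above. The log2 difference was -4.75 ± 0.13 (n = 3 each), 26.9-fold lower in the W81A strain, with an edgeR adjusted p of 8.92e-11. Against wild type, NCE103 differed by 0.03 ± 0.12 in the W81A strain (adjusted p = 0.884) and by 4.78 ± 0.13 in the deletion strain. Among the other bicarbonate-linked enzymes, PYC1, a pyruvate carboxylase, had 461, 402 and 523 CPM in W81A and 1329.9, 1384 and 1444 CPM in deletion libraries, against 248, 208 and 195 CPM in wild type. PYC1 fell (-1.59 ± 0.12) and still stood above wild type in the W81A strain (1.09 ± 0.12). URA2 (-0.69 ± 0.09), the pyrimidine carbamoyl phosphate synthetase, and ACC1 (-0.64 ± 0.10), the cytosolic acetyl-CoA carboxylase, also fell, and the mitochondrial carboxylase HFA1 rose by 0.34 ± 0.06.

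After NCE103, the largest falls among genes with a mean of at least 3 log2 CPM and no overlap between the strains included those of TSL1, SNZ1, SER3, HSP42, HXK1, AIM17, STF2, DSE4, PNC1 and CTT1. TSL1, a regulatory subunit of trehalose synthase, had 38.4, 49.9 and 47.8 CPM in W81A and 280.4, 231 and 242 CPM in deletion libraries (-2.47 ± 0.17). SNZ1, a vitamin B6 synthesis gene, had 66, 79.6 and 80.6 CPM in W81A and 377, 437 and 394 CPM in deletion libraries (-2.42 ± 0.11), and wild type lay between, at 219, 213 and 184 CPM. HXK1, a hexokinase, had 45.2, 69 and 38 CPM in W81A and 242, 239 and 249 CPM in deletion libraries (-2.26 ± 0.18). Separate W81A and deletion libraries were a condition for naming these genes, and 55.6% of all tested genes off chromosome XII met it. SER3, a serine synthesis enzyme, read -2.30 ± 0.23 but overlaps an annotated noncoding RNA gene, so its reads cannot be assigned with certainty. DSE4, a daughter-cell glucanase that helps separate cells after division, had 291, 283 and 285 CPM in W81A and 1192, 1044 and 1072 CPM in deletion libraries (-1.95 ± 0.08). In bulk cultures, fewer cells of a type or phase and less RNA per cell cannot be told apart, here and for the other cell cycle genes. PNC1, the nicotinamidase of NAD salvage, fell by 3.84-fold.

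**Figure D2:**
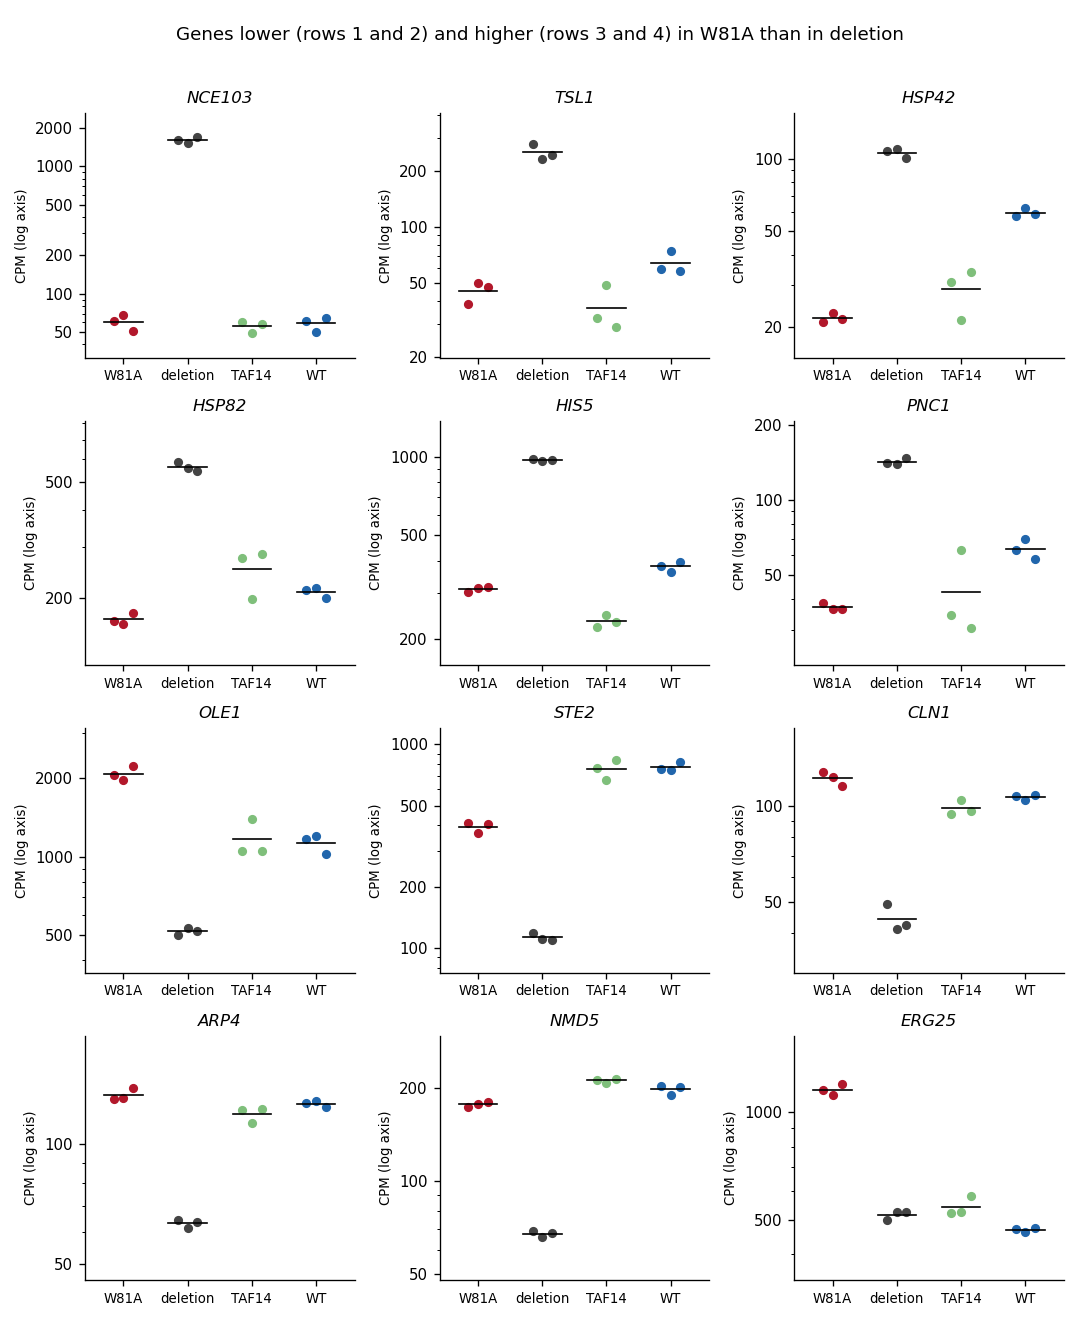
CPM on a log axis for 12 genes, with 1 point per library, black bars at group means and groups ordered W81A, deletion, TAF14 and WT. The W81A libraries lie below the deletion libraries in the upper 6 panels and above them in the lower 6, and for NCE103 the W81A points (50.7 to 68.1 CPM) sit level with wild type.

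Several genes of the Hsp90 machine and its partners fell, some by over 2-fold, while other chaperone genes rose or were not called. Chaperones fold proteins and keep them from aggregating, and heat shock factor Hsf1 drives many of their genes. Of 13 tested Hsp90 and cochaperone genes off chromosome XII, 7 fell, 2 rose and 4 were not called. Their median was -0.27, beside 0.04 for all tested genes off the chromosome, of which 19.1% fell and 24.6% rose. HSP82, the inducible Hsp90, had 166, 162 and 177 CPM in W81A and 589, 559 and 549 CPM in deletion libraries (-1.75 ± 0.11, adjusted p = 8.21e-08), with wild type at 212, 216 and 199 CPM. The constitutive copy HSC82 fell by less (-0.90 ± 0.10). STI1, which links Hsp70 to Hsp90, had 274, 281 and 257 CPM in W81A and 793, 778 and 769.6 CPM in deletion libraries (-1.53 ± 0.08). AHA1, an activator of the Hsp90 ATPase, had 118, 124 and 123 CPM in W81A and 353, 346 and 331 CPM in deletion libraries (-1.50 ± 0.06). The members that rose were PPT1, a phosphatase of Hsp90 (0.34 ± 0.06), and PIH1, of the complex that assembles box C/D snoRNPs (0.36 ± 0.09).

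Among 18 Hsp70, Hsp40 and small Hsp genes, 8 fell and 2 rose (median -0.23), beside 19.1% lower and 24.6% higher over all tested genes. HSP42, a small Hsp that gathers aggregates, had 21.1, 23 and 21.6 CPM in W81A and 108, 109.8 and 101 CPM in deletion libraries (-2.28 ± 0.12). The W81A libraries also lay below wild type, at 58, 62.7 and 59 CPM (-1.45 ± 0.13, adjusted p = 4.15e-06). SIS1, an essential Hsp40, had 103, 102 and 97.5 CPM in W81A, 318, 313 and 321 CPM in deletion and 187, 177 and 198 CPM in wild type libraries (-1.65 ± 0.10 against the deletion strain). The strictly inducible Hsp70 gene SSA4 fell by 2.83-fold and the Hsp40 gene YDJ1 by 1.74-fold. HSP26, another small Hsp, rose instead, with 43.4, 54 and 45.9 CPM in W81A and 28.1, 35.7 and 25.9 CPM in deletion libraries (0.68 ± 0.21, adjusted p = 0.0174), and wild type had 7.48, 6.47 and 3.64 CPM. The call of HSP26 was lost without W81A replicate 2 (0.58), deletion replicate 1 (0.63) or deletion replicate 3 (0.58). SSB1, the ribosome-associated Hsp70, also rose, but 100% of its length has a near copy elsewhere.

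In the organelles the chaperones split. Of 16 mitochondrial and endoplasmic reticulum (ER) chaperone genes, 7 fell and 6 rose (median -0.06). The shares over all tested genes were 19.1% lower and 24.6% higher. HSP78, the mitochondrial disaggregase, had 44.3, 51.7 and 51.1 CPM in W81A and 162, 141 and 137 CPM in deletion libraries (-1.58 ± 0.13). MDJ1, a mitochondrial Hsp40, fell (-1.13 ± 0.07), and so did KAR2, the Hsp70 of the ER (-0.95 ± 0.06). EUG1, an ER protein disulfide isomerase, rose by 0.38 ± 0.08. The 3-unit heat shock element lay in 14.9% (7 of 47) of the promoter windows of the chaperone lists and in 0.785% of all annotated nuclear genes. Genes that fell by at least 2-fold off chromosome XII held it in 3.03% of windows (4 of 132). Those that rose by at least 2-fold held it in 1.23% (1 of 81), so these shares rest on few windows.

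Nearly every proteasome gene fell, by small amounts. The proteasome degrades ubiquitin-tagged proteins, and Rpn4 is the main activator of its genes. Of 31 tested subunit genes off chromosome XII, 30 fell, 0 rose and 1, RPN10, was not called (-0.11 ± 0.08, adjusted p = 0.256). The median was -0.40, and the members ranged from -0.77 to -0.11. Among all tested genes off chromosome XII, 19.1% fell. RPT4, an ATPase of the base, had 165, 165 and 172 CPM in W81A and 276, 289.9 and 290.4 CPM in deletion libraries (-0.77 ± 0.06, adjusted p = 4.74e-07). RPN12, of the lid, had 96.2, 99.3 and 94.3 CPM in W81A and 155, 162 and 158 CPM in deletion libraries (-0.71 ± 0.06), and PRE7, of the catalytic core, fell (-0.58 ± 0.05). Against wild type the list median was -0.04 in the W81A strain and 0.38 in the deletion strain, where 31 of 31 genes were called higher, beside 20.4% of all genes tested off chromosome XII. RPN4 itself had 95, 99.6 and 85.8 CPM in W81A and 96.5, 91.8 and 96.9 CPM in deletion libraries, a difference of -0.02 ± 0.11 (95% interval -0.25 to 0.20, adjusted p = 0.867). The Rpn4 site printed for RPT4 and RPN12 lay in 87.1% of proteasome promoter windows, against 1.19% of all promoters.

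Of 19 proteasome regulators and ubiquitin factors, 13 fell and 1 rose (median -0.28), beside 19.1% lower and 24.6% higher over all tested genes. They included CDC48, the ATPase that extracts ubiquitinated proteins (-0.35 ± 0.07), and the proteasome-bound factors UBP6 (-0.50 ± 0.06) and ECM29 (-0.92 ± 0.08). The ubiquitin ligase UFD4 fell (-0.47 ± 0.06), and NAS6, a chaperone of proteasome assembly, was the member that rose (0.41 ± 0.11).

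Most general stress genes fell, many by over 2-fold, and 3 rose. Msn2 and Msn4 activate most of these genes, which protect cells against heat, oxidants and starvation. Of 28 tested members, 17 fell and 3 rose (median -0.77), beside 19.1% lower and 24.6% higher over all tested genes off chromosome XII. CTT1, the cytosolic catalase, had 18.5, 15 and 17.5 CPM in W81A and 64, 61.2 and 63.4 CPM in deletion libraries (-1.89 ± 0.13), with wild type at 14.9, 13.4 and 11.8 CPM. OM45, a mitochondrial outer membrane protein, had 18.1, 19.7 and 20.1 CPM in W81A and 62.3, 72.2 and 70.7 CPM in deletion libraries (-1.83 ± 0.10). These groups did not overlap, and the W81A libraries were within 0.4 log2 units of wild type for both (0.35 and -0.25).

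HSP12, a membrane-protecting stress protein, behaved otherwise. It had 1211, 1151 and 1299 CPM in W81A, 1378, 1487 and 1562 CPM in deletion and 79.2, 45.4 and 43.6 CPM in wild type libraries. Both mutant strains stood far above wild type (4.44 ± 0.87 and 4.72 ± 0.88). The W81A libraries were below all deletion libraries, but the difference of -0.27 ± 0.74 did not pass the test (95% interval -1.88 to 1.33, adjusted p = 0.788). The TAF14 strain, which shares the estimate of spread, had 6.18, 165 and 6.18 CPM, and with only the 6 compared libraries in the fit HSP12 was called (adjusted p = 0.00598, in a range of 0.00598 to 0.861 over the alternatives). YGP1, a secreted glycoprotein of nutrient-limited cells, rose to 755, 749 and 868 CPM in W81A libraries, against 274, 269 and 239 CPM in deletion libraries (1.60 ± 0.09). The other rises were those of the glycerol phosphatase genes GPP1 (0.95 ± 0.09) and GPP2 (0.80 ± 0.12). Against wild type the list median was 0.54 in the W81A strain and 0.97 in the deletion strain.

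Storage carbohydrate genes fell without exception among those called. Of 17 trehalose and glycogen genes, 12 fell and 0 rose (median -0.78), beside 19.1% lower over all tested genes off chromosome XII. TPS1, which makes trehalose-6-phosphate, had 80.5, 82.4 and 85.1 CPM in W81A, 231, 245 and 223 CPM in deletion and 133, 141 and 130.4 CPM in wild type libraries (-1.49 ± 0.09 against the deletion strain). The W81A libraries were lowest and the deletion libraries highest for TPS1. PGM2, the main phosphoglucomutase, had 23.3, 20.2 and 24.2 CPM in W81A and 66.8, 70.8 and 68.2 CPM in deletion libraries (-1.60 ± 0.08). NTH1, the neutral trehalase, which degrades trehalose, had 122, 113 and 128 CPM in W81A and 295, 274 and 269.5 CPM in deletion libraries (-1.21 ± 0.06). The glycogen branching enzyme GLC3 fell by 2.4-fold. The Msn2 and Msn4 site lay in 64.3% of general stress windows and 47.1% of trehalose and glycogen windows, and in 47% of the windows of genes that fell by at least 2-fold. It lay in 17.3% for genes that rose by at least 2-fold and in 21.7% of all promoters. Lists that fell less also held it often. The shares were 47.8% for oxidant defence (median -0.04), 44.8% for actin (-0.11) and 41.4% for nuclear respiratory chain genes (-0.17).

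Of 23 oxidant defence genes, 7 fell and 3 rose, beside 19.1% lower and 24.6% higher over all tested genes off chromosome XII. Glutathione reductase, GLR1, fell (-0.45 ± 0.06), as did the multidrug transporter gene ATR1 (-1.07 ± 0.11), and the peroxidase gene GPX2 rose by 0.66 ± 0.19. OYE2, an NADPH oxidoreductase, rose by 0.55 ± 0.12.

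Amino acid synthesis genes were lower across most pathways. Gcn4 activates these genes when amino acids run short. Over all synthesis lists together, 41 of 71 genes fell and 2 rose (median -0.41). The shares over all tested genes off chromosome XII were 19.1% lower and 24.6% higher. In the histidine pathway 5 of 6 fell. HIS5 had 302, 314 and 316 CPM in W81A and 985, 969 and 974 CPM in deletion libraries (-1.65 ± 0.06, adjusted p = 1.21e-09). HIS4 had 1136, 1357 and 1338 CPM in W81A and 2923, 3139 and 2966 CPM in deletion libraries (-1.24 ± 0.08). Wild type was nearer to the W81A strain for both, at 382, 361 and 396 CPM of HIS5 and 1057, 1042 and 982 CPM of HIS4.

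In the lysine pathway 8 of 10 genes fell (median -0.70). LYS1, the last enzyme of the pathway, had 63.4, 79.3 and 79.1 CPM in W81A and 161, 159.8 and 157 CPM in deletion libraries (-1.11 ± 0.08), with wild type between at 114, 113 and 110.1 CPM. In the branched-chain pathway 9 of 10 fell (median -0.84). LEU1, isopropylmalate isomerase, had 1392, 1151 and 1478 CPM in W81A, 3472, 3608 and 3580.1 CPM in deletion and 2055, 1976 and 1978 CPM in wild type libraries. BAT1, the mitochondrial branched-chain transaminase, had 529.8, 457 and 541 CPM in W81A, 1234, 1159 and 1147 CPM in deletion and 837, 861 and 845 CPM in wild type libraries. Both fell (-1.41 ± 0.09 and -1.21 ± 0.07), and for both the W81A libraries were the lowest of the 3 groups and the deletion libraries the highest. Against wild type LEU1 differed by -0.58 ± 0.09 in the W81A strain and by 0.83 ± 0.09 in the deletion strain.

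Of 9 arginine genes 5 fell and 0 rose. They included ARG3, ornithine carbamoyltransferase, with 165, 200.4 and 176 CPM in W81A and 245, 237 and 234 CPM in deletion libraries (-0.41 ± 0.09). ARG3 stayed above wild type, at 47.7, 45.8 and 51.4 CPM, in the W81A strain (1.90 ± 0.10). Of 14 aromatic genes 7 fell and 1 rose. ARO9, the aromatic transaminase of amino acid breakdown, fell by 2.58-fold and ARO4, of the shikimate entry step, by 1.58-fold. In the list of aspartate, serine, glycine, proline and glutamate enzymes, 7 of 22 fell and 1 rose, with a median of -0.06. The share of all tested genes off chromosome XII that fell was 19.1%. GDH1, which makes glutamate from ammonium, had 262, 272 and 269 CPM in W81A and 597, 746 and 687 CPM in deletion libraries (-1.34 ± 0.08). The gene that rose was CHA1, the deaminase that degrades serine and threonine, with 197, 209 and 193 CPM in W81A, 48.9, 54.9 and 46.5 CPM in deletion and 20.5, 35.4 and 27.9 CPM in wild type libraries (1.99 ± 0.34). For CHA1 the W81A libraries were the farther from wild type. The mRNA of GCN4 itself had 696, 757 and 788 CPM in W81A and 911, 695 and 749 CPM in deletion libraries (-0.07 ± 0.10, adjusted p = 0.575). The Gcn4 site lay in 49.3% of the synthesis genes' windows and in 8% of all. It lay in 15.9% of windows of genes down by at least 2-fold. For genes up by at least 2-fold it lay in 1.23% (1 of 81). In the tRNA synthetase list, where 2 of 18 rose and 1 fell, 44.4% of windows held it.

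Amino acid and ammonium permease genes moved little as a group, with 3 higher and 5 lower of 20. Over all tested genes off chromosome XII the shares were 24.6% higher and 19.1% lower. GAP1, the general amino acid permease, had 39.7, 44 and 35.5 CPM in W81A, 30.5, 38.3 and 40.5 CPM in deletion and 10.1, 8.01 and 7.27 CPM in wild type libraries. It stood above wild type in both strains (2.22 ± 0.16 and 2.10 ± 0.16), and the difference between them was 0.12 ± 0.14 (95% interval -0.17 to 0.42). Of 16 purine and one-carbon genes 8 fell and 2 rose. IMD2, an IMP dehydrogenase of guanine nucleotide synthesis, rose to 16, 15.3 and 16.9 CPM in W81A libraries, against 6.55, 9.06 and 6.78 CPM in deletion libraries (1.10 ± 0.20), and wild type had 41.3, 42.5 and 38.9 CPM. In the sulfur and methionine list 6 of 23 fell and 0 rose, and the called total was 10 with only the 6 compared libraries in the fit, 14 without replicate 2 of the TAF14 strain and 3 without deletion replicate 2.

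**Figure D3:**
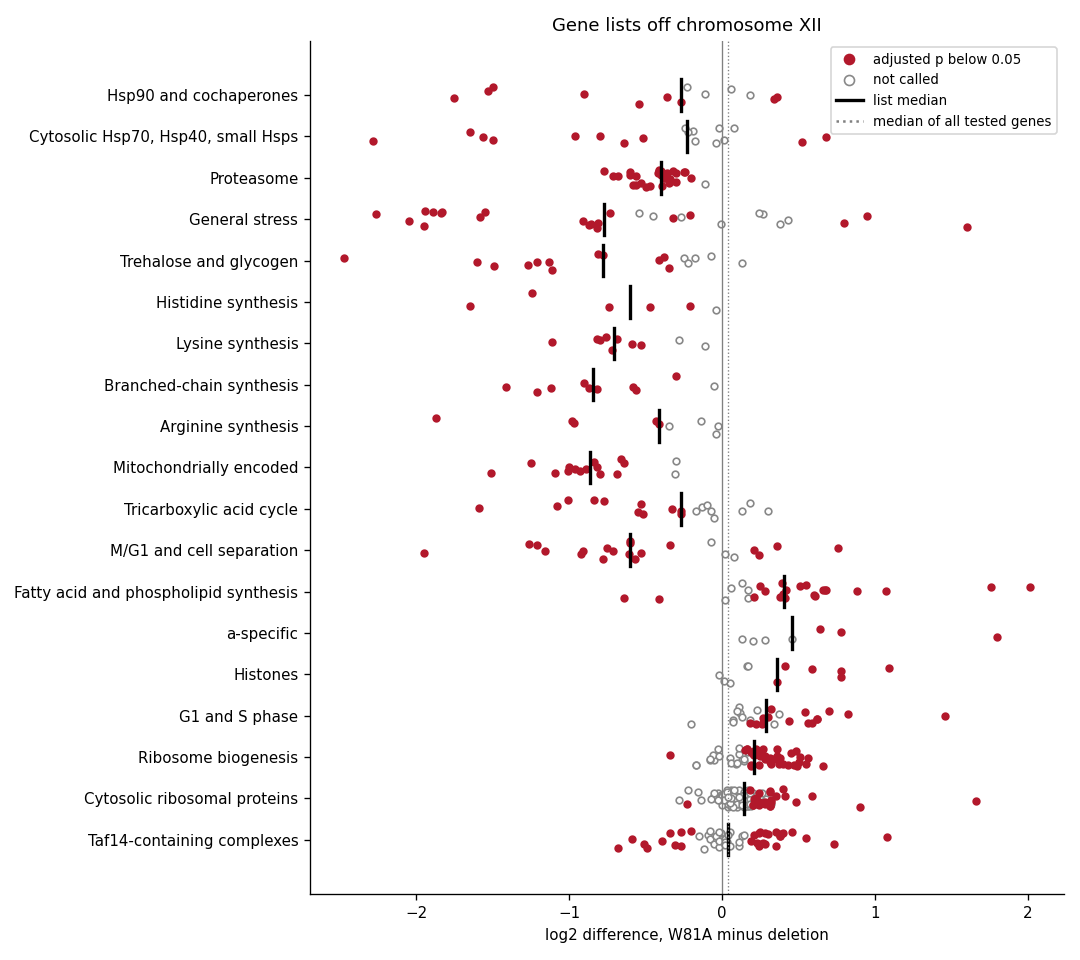
Each point is the log2 difference of 1 gene off chromosome XII, W81A minus deletion, with 1 row per gene list, filled points for called genes and black bars at list medians. The proteasome row lies wholly below 0, between -0.77 and -0.11, whereas the row of Taf14-containing complexes scatters around the dotted median of all tested genes, 0.04.

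Most transcripts of mitochondrially encoded genes were also lower. Of 16 tested members of that list, 14 fell and 0 rose (median -0.87), beside 19.1% of all tested genes off chromosome XII called lower. Of its 19 members 3 were below the filter. COX3, a subunit of cytochrome c oxidase that overlaps no other gene, had 358, 209 and 360.3 CPM in W81A and 632, 578 and 511 CPM in deletion libraries (-0.89 ± 0.18, adjusted p = 0.0017). ATP6, a subunit of ATP synthase, had 220.3, 147 and 208 CPM in W81A and 352, 275 and 302 CPM in deletion libraries (-0.69 ± 0.17). W81A replicate 2 was lowest for both genes, and all W81A libraries lay below all deletion libraries for ATP6 and COX3. COX1, which overlaps intron-encoded genes, read -1.09 ± 0.18 and is uncertain. Reads of overlapping members cannot be assigned with certainty, so the 14 falls are not separate results. Over the 18 tested mitochondrial entries, library medians against the wild type mean spread widely. They were 0.136, -0.344 and 0.228 in W81A, 0.955, 0.811 and 0.82 in deletion and -0.177, 0.277 and -0.257 in TAF14 libraries. Against wild type the list median was -0.04 in the W81A strain, with 0 genes called higher and 0 lower, and 0.82 in the deletion strain, with 16 higher and 0 lower.

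Nuclear respiratory chain and ATP synthase genes changed less, and 12 of 29 fell and 0 rose (median -0.17). This count was 7 without W81A replicate 1 and 3 without W81A replicate 2. Of 19 tricarboxylic acid cycle genes, 11 fell and 0 rose (median -0.27). Both lists stand beside 19.1% lower over all tested genes off chromosome XII. CIT1, mitochondrial citrate synthase, had 86.5, 93.2 and 79 CPM in W81A, 171, 187 and 189 CPM in deletion and 141, 137 and 136 CPM in wild type libraries (-1.08 ± 0.09 against the deletion strain). SDH1, the flavoprotein of succinate dehydrogenase, fell by 2.01-fold.

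Most lipid synthesis genes rose. Mga2 and Spt23 activate the desaturase gene OLE1, and Ino2 and Ino4 activate phospholipid genes. Of 26 fatty acid, inositol and phospholipid genes, 19 rose and 2 fell (median 0.40), beside 24.6% of all genes tested off chromosome XII called higher. OLE1, which encodes the only fatty acid desaturase of yeast, had 2066, 1972 and 2226 CPM in W81A, 503, 533 and 517 CPM in deletion and 1166, 1203 and 1021 CPM in wild type libraries. The 3 groups were fully separate, with the W81A libraries highest and the deletion libraries lowest. The log2 difference from the deletion strain was 2.01 ± 0.11, 4.03-fold (adjusted p = 2.36e-08), and the W81A strain stood above wild type by 0.89 ± 0.10. MGA2 had 327, 292 and 319 CPM in W81A and 183, 166 and 159.8 CPM in deletion libraries (0.88 ± 0.07), and the W81A libraries overlapped wild type, at 329.6, 310.3 and 354 CPM.

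INO1, inositol-3-phosphate synthase, had 39.4, 32.1 and 31.8 CPM in W81A, 10.5, 11.4 and 8.62 CPM in deletion and 44.2, 48.6 and 33.8 CPM in wild type libraries (1.76 ± 0.25 against the deletion strain). ELO1, a fatty acid elongase, had 123, 122 and 136 CPM in W81A and 60.8, 63.2 and 57.5 CPM in deletion libraries (1.07 ± 0.10). The phosphatidylserine decarboxylase gene PSD1 rose by 0.67 ± 0.06, and OPI1 and INO2, a repressor and an activator of phospholipid genes, rose by 0.61 ± 0.08 and 0.40 ± 0.10. FAS1, a subunit of fatty acid synthase, rose by 0.38 ± 0.10. The members that fell were ACC1 and the inositol monophosphatase gene INM1 (-0.41 ± 0.09). SUR1, a mannosyltransferase subunit of sphingolipid synthesis outside this list, had 85.9, 86.5 and 74.7 CPM in W81A and 29.8, 24.3 and 20.4 CPM in deletion libraries (1.73 ± 0.14).

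The remaining large rises had no common list. RDS1 had 9.85, 38.4 and 42.6 CPM in W81A and 3.27, 3.48 and 3.39 CPM in deletion libraries (3.16 ± 0.51), and wild type had 17.1, 16.6 and 15 CPM. W81A replicate 1 stood well below the other W81A libraries and below wild type. AIF1, named for its likeness to mammalian apoptosis-inducing factor, had 19.5, 19.1 and 17.8 CPM in W81A and 5.46, 6.47 and 6.39 CPM in deletion libraries (1.61 ± 0.18). RPI1, a transcription regulator, had 96.1, 84.6 and 84.9 CPM in W81A and 34.8, 26.9 and 26 CPM in deletion libraries (1.60 ± 0.16). NMD5, an importin, had 174, 178 and 181 CPM in W81A and 69.2, 65.9 and 67.7 CPM in deletion libraries (1.39 ± 0.05, adjusted p = 1.21e-09). It was the karyopherin gene that changed most, since of 14 tested 2 rose and 5 fell, and the falls reached -0.39. The karyopherin total of 7 was 4 without W81A replicate 1 or 2 or deletion replicate 3, and 4 with upper-quartile scaling. RPL8A read 1.66 ± 0.27, but 100% of its length has a near copy elsewhere, so the value is uncertain.

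Of the a-specific mating genes, STE2 and the a-factor genes were higher with the point mutant than without Taf14, and the other 4 were not called. Haploid a cells make a-factor, export it through Ste6, sense alpha-factor through the receptor Ste2 and degrade it with the protease Bar1. Against wild type, 7 of 7 were called lower in the W81A strain (median -1.70), beside 15.1% of all tested genes, and 7 in the deletion strain (median -2.26), beside 26.8%. Against the deletion strain, 3 of them were called higher in the W81A strain (median 0.46), beside 24.6% of all tested genes. With replicate 2 of the TAF14 strain left out of the shared fit, 6 were called.

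STE2 had 410.2, 368 and 405 CPM in W81A, 119, 110.5 and 109 CPM in deletion and 758, 744 and 819 CPM in wild type libraries. The W81A level lay between the others without overlap, 3.49-fold above the deletion strain (1.80 ± 0.08, adjusted p = 8.73e-09) and still below wild type (-0.97 ± 0.08). MFA2, an a-factor gene, had 160.3, 144 and 164 CPM in W81A, 82.7, 97.2 and 92.1 CPM in deletion and 231, 231 and 198 CPM in wild type libraries (0.78 ± 0.09 against the deletion strain). MFA1, the other a-factor gene, had 15.2, 14.4 and 14.4 CPM in W81A, 8.4, 10.2 and 9.59 CPM in deletion and 98.9, 86.1 and 112 CPM in wild type libraries (0.64 ± 0.21 against the deletion strain, adjusted p = 0.0266). Both a-factor genes were higher in every W81A library than in any deletion library, and MFA1 still differed from wild type by -2.75 ± 0.18. The call of MFA1 was lost when any 1 of the 6 libraries was left out (0.57 to 0.68, adjusted p from 0.0507 to 0.0805).

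BAR1 had 38.9, 40.9 and 44.9 CPM in W81A, 34.5, 37 and 37.3 CPM in deletion and 327, 323 and 317 CPM in wild type libraries. The 3 W81A libraries were above the 3 deletion libraries, but the difference of 0.20 ± 0.19 did not pass the test (95% interval -0.21 to 0.61, adjusted p = 0.422). STE6 had 358, 361 and 372 CPM in W81A, 336, 329.7 and 333 CPM in deletion and 744, 713 and 773 CPM in wild type libraries, a difference of 0.13 ± 0.08 between the mutants (95% interval -0.05 to 0.31). AGA2, a subunit of a-agglutinin, differed by 0.28 ± 0.30 (95% interval -0.36 to 0.93) and ASG7 by 0.46 ± 0.38 (95% interval -0.36 to 1.29). Without replicate 2 of the TAF14 strain, BAR1 (0.20, adjusted p = 0.0212), STE6 (0.13, adjusted p = 0.0473) and AGA2 (0.28, adjusted p = 0.0226) were called, at the same size. Over all alternatives the adjusted p lay between 0.0212 and 0.655 for BAR1, 0.0473 and 0.444 for STE6, 0.0226 and 0.678 for AGA2, and 0.104 and 0.567 for ASG7.

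Of 14 pheromone signalling genes 4 rose and 1 fell, a share of rises near the 24.6% of all tested genes. FUS3, the mitogen-activated kinase of the pathway, had 51.4, 48.7 and 51 CPM in W81A and 29, 28.2 and 28.7 CPM in deletion libraries (0.82 ± 0.10). FAR1, which arrests the cycle in response to pheromone, had 108, 107 and 112 CPM in W81A, 71.2, 64.5 and 65 CPM in deletion and 291, 291 and 289 CPM in wild type libraries (0.71 ± 0.10 against the deletion strain). DIG2, an inhibitor of Ste12, and STE12 itself rose by 0.86 ± 0.11 and 0.42 ± 0.11. The called total of 5 in this list was 8 without replicate 2 of the TAF14 strain and 8 with only the 6 compared libraries in the fit. Of 18 pheromone-induced genes 3 rose and 1, PRM5, fell (-1.63 ± 0.10), a share of rises under that 24.6%. FUS1, needed for cell fusion, had 4.62, 3.18 and 5.39 CPM in W81A, 5.35, 8.06 and 7.65 CPM in deletion and 23.2, 20 and 20.1 CPM in wild type libraries, and its difference of -0.68 ± 0.53 was not called (adjusted p = 0.314). With TAF14 replicate 2 left out it was called (adjusted p = 0.01, in a range of 0.01 to 0.539 over the alternatives). The total in this list was then 7 in place of 4, and 7 also with only the 6 compared libraries. STE3, the a-factor receptor of alpha cells, was low throughout, with 5.33, 4.45 and 4.49 CPM in W81A, 0.546, 0.597 and 1.36 CPM in deletion and 3.22, 3.9 and 3.64 CPM in wild type libraries, and rose by 2.48 ± 0.28. The Ste12 site, searched as TGAAACA, lay in 71.4% of a-specific and 61.1% of pheromone-induced windows, against 7.5% of all.

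**Figure D4:**
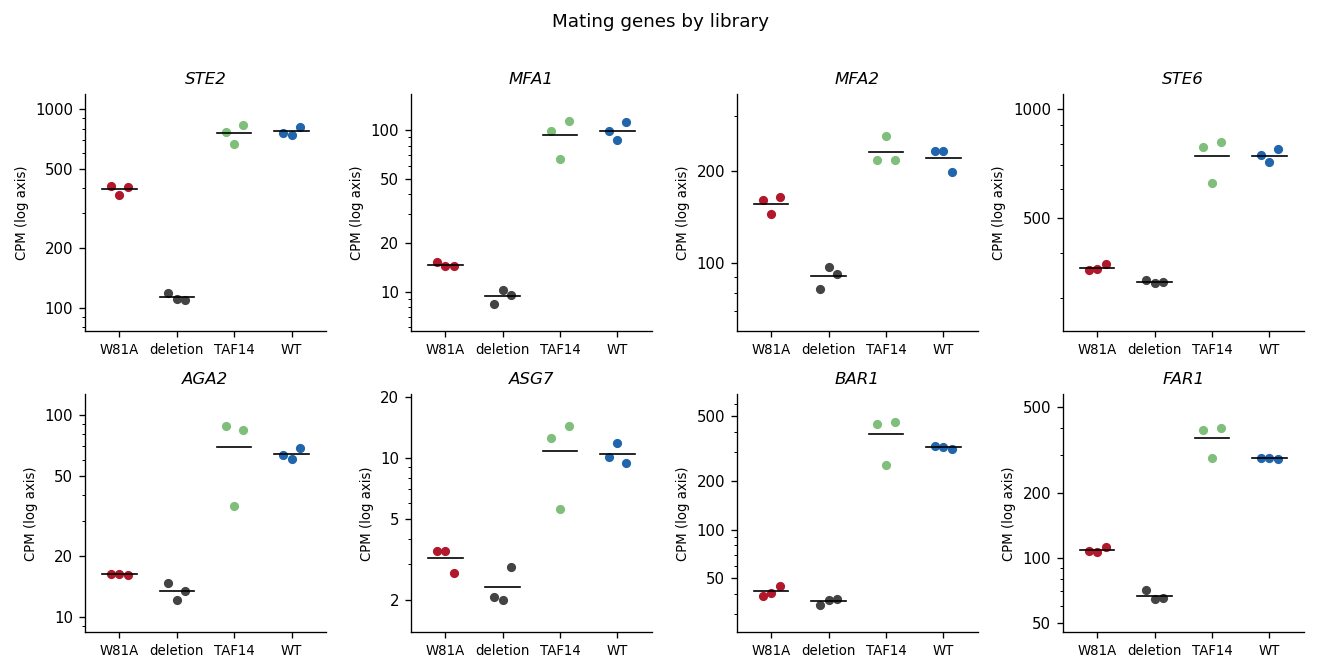
CPM on a log axis for 7 a-specific genes and FAR1, with 1 point per library, black bars at group means and groups ordered W81A, deletion, TAF14 and WT. For STE2 the W81A libraries (368 to 410 CPM) lie between the deletion and wild type libraries, while for STE6 and BAR1 they lie just above the deletion libraries.

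More of the histone and G1 to S phase genes rose than were not called, and most genes of the M to G1 transition fell. Of 11 histone genes 6 rose and 0 fell (median 0.36), beside 24.6% higher over all tested genes off chromosome XII. HTA1, which encodes H2A, had 234, 240.1 and 242 CPM in W81A and 103, 114 and 119.8 CPM in deletion libraries (1.09 ± 0.13), with wild type at 223, 242 and 189 CPM. HTB1, the H2B gene beside it, rose by 0.78 ± 0.10, and HTZ1, the variant H2A.Z, by 0.78 ± 0.12. HHF1, an H4 gene, rose (0.41 ± 0.07), with 100% of its length present in a near copy.

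Of 26 G1 and S phase genes 15 rose and 0 fell (median 0.29), beside the same 24.6% of all tested genes called higher. CLN1, a G1 cyclin, had 128, 124 and 116 CPM in W81A and 49.6, 41.4 and 42.5 CPM in deletion libraries (1.46 ± 0.07, adjusted p = 1.65e-08), with wild type at 108, 105 and 109 CPM. RNR1, the large subunit of ribonucleotide reductase, had 782, 735 and 813 CPM in W81A, 537, 531 and 531 CPM in deletion and 546, 533 and 503 CPM in wild type libraries. RNR1 rose (0.54 ± 0.07), and the deletion libraries overlapped wild type (0.02 ± 0.07). PCL1, another G1 cyclin, rose by 0.62 ± 0.10, and MCD1, a cohesin subunit, by 0.62 ± 0.06. CLN2 read 0.11 ± 0.10 (95% interval -0.09 to 0.32) and was not called. The MluI cell cycle box, ACGCGT, lay in 42.3% of these windows, against 3.07% of all.

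Among 16 G2 and M genes 6 rose and 2 fell, beside 24.6% higher and 19.1% lower over all tested genes off chromosome XII. CLB1, a mitotic cyclin, had 250.3, 237 and 239 CPM in W81A and 94.3, 80.4 and 81.9 CPM in deletion libraries (1.50 ± 0.15). Its partner CLB2 had 149.7, 145 and 141 CPM in W81A and 95.9, 87.8 and 104 CPM in deletion libraries (0.60 ± 0.08). CLB1 in the W81A strain also exceeded wild type (0.75 ± 0.15). In contrast, 15 of 22 genes of the M to G1 transition and of cell separation fell and 4 rose (median -0.60). EGT2, expressed in early G1 for cell separation, had 505, 491 and 512 CPM in W81A and 1017, 910 and 909 CPM in deletion libraries (-0.91 ± 0.07). AMN1, a gene expressed in daughter cells, fell (-0.92 ± 0.05). The 4 that rose were the replication licensing genes CDC6 (0.76 ± 0.09), MCM7 (0.36 ± 0.05), MCM3 (0.24 ± 0.07) and MCM2 (0.21 ± 0.07). The call of MCM3 was lost without deletion replicate 1 (0.18), and that of MCM2 without any 1 of the W81A replicates or deletion replicate 1 or 2 (0.18 to 0.22).

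Of 20 DNA damage response genes 6 rose and 5 fell, beside 24.6% higher and 19.1% lower over all tested genes off chromosome XII. The genes below are single results. The checkpoint kinase genes RAD53 (0.55 ± 0.08) and DUN1 (0.59 ± 0.08) rose. RNR2, the small subunit of ribonucleotide reductase, had 183, 175 and 188 CPM in W81A, 119, 120 and 111 CPM in deletion and 233, 244 and 243 CPM in wild type libraries (0.64 ± 0.06 against the deletion strain). HUG1, a damage-induced inhibitor of that enzyme, read 0.71 ± 0.43 and was not called (adjusted p = 0.196).

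Genes for making ribosomes were higher by small amounts. Of 56 ribosome biogenesis genes 36 rose and 1 fell (median 0.21). The lists of this paragraph stand beside 24.6% higher and 19.1% lower over all tested genes. NSR1, a nucleolar protein of pre-rRNA processing, had 618, 602 and 640.5 CPM in W81A and 383, 394 and 396 CPM in deletion libraries (0.66 ± 0.06), with wild type at 639, 645 and 618 CPM. NOP1, fibrillarin, rose by 0.38 ± 0.07. Among 19 subunits of RNA polymerases I and III, 10 rose and 2 fell, and RPA190, the largest subunit of polymerase I, had 1985, 1924 and 2071 CPM in W81A and 1593, 1545 and 1559 CPM in deletion libraries (0.35 ± 0.06). Of 117 cytosolic ribosomal protein genes 25 rose, 1 fell and 91 were not called (median 0.14), a share called higher close to the 24.6% of all tested genes. The called total in that list was 15 without W81A replicate 3. Among 12 RNA polymerase II genes, 6 small subunits rose and 3 fell, among them the largest subunit gene RPO21, and the called total of 9 was 5 without deletion replicate 3. RPO21 had 687, 723 and 838 CPM in W81A and 1413, 1017 and 997 CPM in deletion libraries (-0.61 ± 0.13), and deletion replicate 1 was the highest.

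Subunit genes of the complexes that contain Taf14 did not move one way. Of 55 tested off chromosome XII, 21 rose and 10 fell (median 0.04, the same as all tested genes), and the called total of 31 was 20 without W81A replicate 1. Beside them, 24.6% of all tested genes off the chromosome rose and 19.1% fell. ARP4, the actin-related subunit of INO80 that is also part of NuA4 and SWR1, had 130.2, 131 and 139 CPM in W81A and 64.3, 61.5 and 63.7 CPM in deletion libraries. Wild type had 127, 129 and 124 CPM, close below the W81A libraries, and the deletion libraries lay below both groups. ARP4 rose by 1.08 ± 0.05 (adjusted p = 1.77e-08). Of the other INO80 subunits, IES2 (-0.68 ± 0.17) and NHP10 (-0.31 ± 0.06) fell.

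In RSC, 7 of 11 rose and 1, HTL1, fell (-0.39 ± 0.11). STH1, the ATPase of RSC, had 489.9, 472 and 504 CPM in W81A and 312, 284 and 288 CPM in deletion libraries (0.73 ± 0.07), with wild type at 456, 430.3 and 469.9 CPM. Without W81A replicate 1 the call of HTL1 was lost (-0.33). The 8 called RSC genes were 3 without W81A replicate 1 and 5 without deletion replicate 2 or 3. In SWI/SNF 6 of 11 rose, SWI3 by 0.38 ± 0.06 and ARP7 by 0.40 ± 0.06, and SWI1 fell (-0.59 ± 0.10). In TFIID 3 of 14 rose and 4 fell, with SPT15, which encodes TATA-binding protein, at 0.35 ± 0.07 and TAF7 at -0.49 ± 0.13. The TFIID total of 7 was 4 without W81A replicate 1. The TFIIF subunit TFG1 fell (-0.20 ± 0.04), TFG2 read -0.05 ± 0.06, and in NuA3 the scaffold NTO1 (0.46 ± 0.08) and the acetyltransferase SAS3 (0.35 ± 0.08) rose while EAF6 fell (-0.34 ± 0.08).

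**Figure D5:**
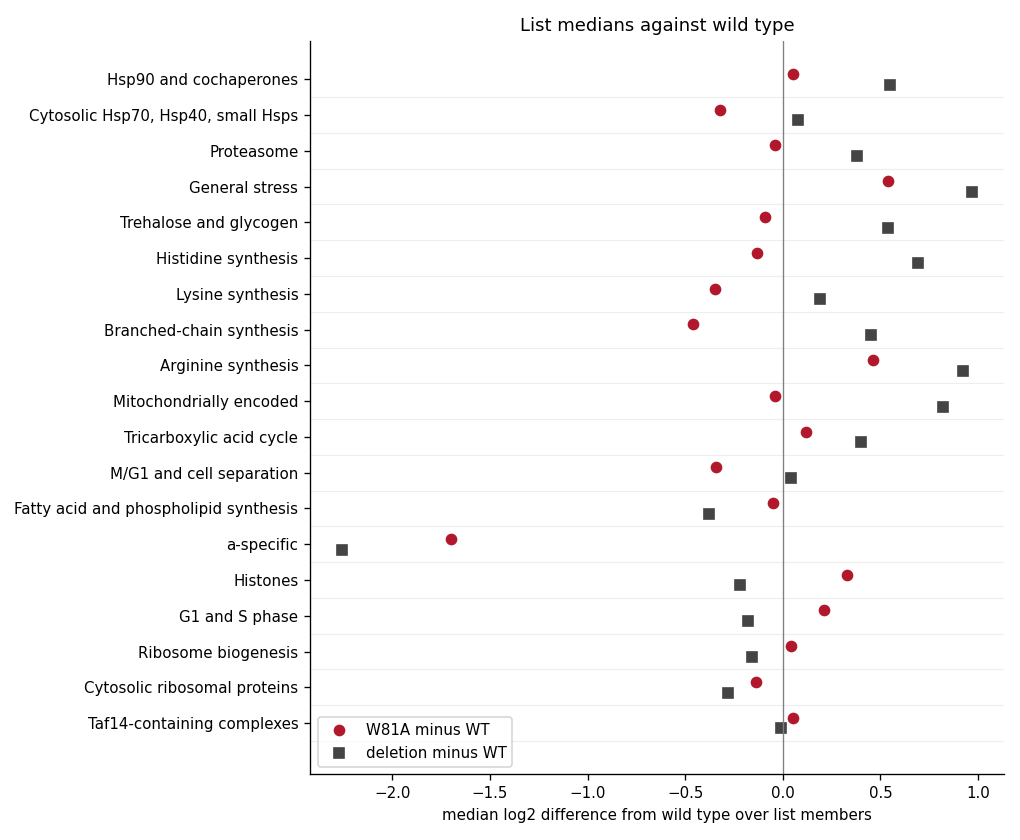
Median log2 difference from wild type over the members of each list off chromosome XII, with red circles for W81A minus WT and dark squares for deletion minus WT, which share the wild type libraries. The proteasome median is -0.04 in W81A and 0.38 in deletion, and the a-specific median is -1.70 in W81A and -2.26 in deletion.

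Of 22 ergosterol synthesis genes 5 rose and 7 fell, and of 22 iron regulon genes 7 rose and 5 fell, beside 24.6% higher and 19.1% lower over all tested genes off chromosome XII. These shares do not set either list apart, and the genes below are single results. ERG25, the C-4 methyl sterol oxidase, had 1156, 1114 and 1199.6 CPM in W81A, 499, 525 and 527 CPM in deletion and 471, 462 and 475 CPM in wild type libraries. It rose by 1.16 ± 0.06 (adjusted p = 2.01e-08), and the deletion strain was close to wild type (0.14 ± 0.06), and the W81A libraries were the group apart. ERG1, squalene epoxidase, rose by 0.71 ± 0.07 and the sterol regulator UPC2 by 0.78 ± 0.07, and ERG9, squalene synthase, fell (-0.63 ± 0.05). In the iron regulon, FIT2, a cell wall mannoprotein that retains siderophores, had 41.4, 53.5 and 39.8 CPM in W81A, 126, 133 and 152 CPM in deletion and 12.1, 12.2 and 11.9 CPM in wild type libraries (-1.61 ± 0.21 against the deletion strain). The high-affinity uptake genes FTR1, the permease, and FET3, its oxidase, rose by 0.80 ± 0.11 and 0.41 ± 0.08, and FTR1 had 412, 514 and 431 CPM in W81A and 229, 272 and 282 CPM in deletion libraries.

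Of 29 cell wall and cell wall integrity genes 11 rose and 8 fell. The lists of this paragraph stand beside 24.6% higher and 19.1% lower over all tested genes off chromosome XII. CWP2, a major mannoprotein, had 3393, 3088 and 3549 CPM in W81A, 1154, 1206 and 1132 CPM in deletion and 1462, 1789 and 1593 CPM in wild type libraries (1.52 ± 0.16 against the deletion strain). GAS1, a glucan-remodelling enzyme, had 3412, 3283 and 3765 CPM in W81A and 1589, 1747 and 1694 CPM in deletion libraries (1.06 ± 0.08). CWP1, another mannoprotein, had 39.6, 38.3 and 44.2 CPM in W81A and 128, 139 and 149 CPM in deletion libraries and fell (-1.77 ± 0.49), so this pair moved in opposite directions. HSP150, a heat-inducible wall protein that is also in the M to G1 list, fell by 2.39-fold, and the kinase gene SLT2 fell (-0.37 ± 0.07). Glycolysis and fermentation genes had 9 higher and 7 lower of 24. ENO1, an enolase, had 679.8, 741 and 752 CPM in W81A and 264, 377 and 262 CPM in deletion libraries (1.27 ± 0.19). ALD6, cytosolic aldehyde dehydrogenase, had 943, 916 and 934 CPM in W81A, 1641, 1809 and 1768 CPM in deletion and 356, 408 and 349 CPM in wild type libraries, and fell (-0.90 ± 0.09) while staying above wild type (1.33 ± 0.10). The hexose transporter gene HXT7 fell by 6.53-fold, but HXT7 and HXT6 are near copies over their whole length and their reads cannot be assigned with certainty. Hexose transport genes had 4 higher and 4 lower of 14, and the total of 8 was 5 without W81A replicate 1 or any 1 deletion replicate. Of 29 actin cytoskeleton genes 10 fell and 3 rose, by at most -0.56 and 0.47. Within 20 kb of a chromosome end, 38 of 134 tested genes rose and 26 fell (median 0.09), and 108 of 247 such entries were below the filter, shares called near the 24.6% and 19.1% of all tested genes. Phosphate regulon genes had 3 higher and 3 lower of 23, and the total of 6 was 3 without W81A replicate 3.

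The remaining lists are given beside 24.6% higher and 19.1% lower over all tested genes off chromosome XII. Thiamine and vitamin B6 genes had 5 higher and 5 lower of 19 (median 0.23), with TPN1, a vitamin B6 transporter, lower (-0.88 ± 0.11). tRNA synthetase genes had 2 higher and 1 lower of 18 (median -0.02), with 5 called by DESeq2 and 1 without W81A replicate 1 or deletion replicate 3. Mitochondrial ribosomal protein genes had 10 higher and 1 lower of 72 (median 0.10), and the total of 11 was 4 without W81A replicate 2 and 6 without deletion replicate 2. Genes of the unfolded protein response and ER-associated degradation had 7 higher and 3 lower of 19. Haploid-specific and meiosis genes had 7 higher and 2 lower of 18 (median 0.35), SPO19 included.

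On chromosome XII, W81A cells had 299 of 500 tested genes below deletion cells and 9 above (59.8% and 1.8%), with a median of -0.43, and the libraries of the strains did not overlap for 408 genes (81.6%). The other 15 nuclear chromosomes had medians between -0.0163 and 0.0779. Against wild type, the W81A strain had 29 genes higher and 42 lower on this chromosome (5.8% and 8.4%), and the deletion strain had 315 higher and 17 lower (63% and 3.4%). When each library's chromosome XII genes were recentred on their own median, a setting chosen after the data were seen, 103 genes were higher and 117 lower (20.6% and 23.4%). DNA copy number was not measured here.

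The 5 largest falls and 5 largest rises on the chromosome are given with their recentred values, which by construction lie higher by nearly the same amount for every gene. GSY2, glycogen synthase, had 33.7, 34.4 and 29.6 CPM in W81A, 226, 219 and 199 CPM in deletion and 78.8, 84.3 and 82.7 CPM in wild type libraries (-2.72 ± 0.34, and -2.27 recentred). HSP104, the disaggregase that rescues aggregated proteins, had 130.2, 145 and 129.8 CPM in W81A, 782, 833 and 783 CPM in deletion and 325, 345 and 322 CPM in wild type libraries (-2.56 ± 0.13, and -2.11 recentred, adjusted p = 1.49e-10). Both stood below wild type in the W81A strain and above it in the deletion strain. UBI4, the polyubiquitin gene, had 19.7, 18.6 and 21.6 CPM in W81A, 82.5, 79.6 and 75.9 CPM in deletion and 20.8, 22.5 and 17.7 CPM in wild type libraries (-1.99 ± 0.15, and -1.53 recentred). CAR2, ornithine transaminase of arginine breakdown, had 15.1, 18.5 and 19.8 CPM in W81A and 69.4, 94.9 and 80.2 CPM in deletion libraries (-2.20 ± 0.22, and -1.74 recentred). NCW2, a cell wall gene, fell (-2.31 ± 0.30, and -1.86 recentred). The chaperone lists had 6 members here, all called lower, among them HSP60, a mitochondrial chaperonin (-1.19 ± 0.10, and -0.73 recentred), and CPR6, an Hsp90 cochaperone (-1.43 ± 0.07, and -0.97 recentred). The proteasome list had 1, RPN13 (-0.49 ± 0.09), which recentred read -0.03 (adjusted p = 0.746).

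Among the rises, BNA5, of the pathway from tryptophan to NAD, had 71.8, 65.6 and 80 CPM in W81A, 29.8, 28.5 and 29.6 CPM in deletion and 65.8, 74.8 and 69.3 CPM in wild type libraries (1.31 ± 0.09, and 1.77 recentred). FRE1, a ferric reductase, had 209.9, 247 and 324 CPM in W81A and 109, 108 and 104 CPM in deletion libraries (1.28 ± 0.15, and 1.74 recentred). NEJ1, a regulator of non-homologous end joining that is repressed in diploids, had 32.3, 30.7 and 34 CPM in W81A and 19, 18.5 and 20 CPM in deletion libraries (0.76 ± 0.16, and 1.22 recentred). These 3 were higher in the W81A strain although most genes of the chromosome were lower. INA1 (0.29 ± 0.09) and RPS22B (0.43 ± 0.11) completed the 5, and RPS22B overlaps a noncoding RNA gene. Recentred, INA1 read 0.75 and RPS22B 0.89. Without recentring, the call of INA1 was lost without W81A replicate 3 (0.28), deletion replicate 2 (0.25) or deletion replicate 3 (0.28).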

How the data were processed

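RNA from 12 yeast samples in 4 groups of 3 was extracted with phenol and chloroform, treated with DNase, freed of rRNA by Ribo-Zero Gold and turned into stranded TruSeq libraries, per the labels. The counts per gene are whole reads as the authors deposited them, made with TopHat2 2.0.14, SAMtools 0.1.19 and HTSeq 0.6.1p1 on sacCer3, per the submitters' processing notes, which also name DESeq2 1.8.1. The strand setting and annotation of the counting are not given in the sources used here.

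Genes were filtered with filterByExpr (minimum count 10), which left 5918 and removed 774. They were scaled by TMM and tested with edgeR 4.0.16 (quasi-likelihood F-test, 4 groups in 1 fit, 8 residual degrees of freedom, Benjamini-Hochberg over all tested genes, called below 0.05). The biological coefficient of variation was 8.59%. Differences are log2, W81A minus deletion, ± SE. CPM values use the library size after TMM scaling, are not corrected for gene length and compare libraries within a gene. The libraries held 9007715 to 11662085 counts, and limits for a count of 0 use 3 counts and cover counting error only. The pipeline was tested on simulated data.

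The comparison, its members and the gene lists were chosen with earlier results of these data known. The genes named are those with the 12 largest changes each way off chromosome XII and 5 each way on it (called, libraries not overlapping, mean of at least 3 log2 CPM), 4 per list with the smallest p, the markers, and 7 genes known from earlier results. A gene that the rule names is not reported here. Genes named outside this rule were chosen after their values were seen, namely AGA2, ASG7, ARG3, ATP6, CDC48, CDC6, CLN2, COX3, CWP1, EUG1, FAS1, FET3, FUS1, GCN4, GLC3, GPP1, GPP2, GPX2, HSC82, HSP26, HTL1, HUG1, HXT6, IMD2, INM1, INO2, MCM2, MCM3, MCM7, NAS6, NOP1, OPI1, OYE2, PCL1, PIH1, PPT1, RPN10, RPN13, SLT2, SSA4, SSB1, STE12 and YDJ1. Gene names and coordinates came from the R64 annotation (6008 of 6692 identifiers matched), and sequences are from RefSeq (R64, the same assembly as sacCer3). Near copies (95% identity over at least 30% of the length, blastn 2.17.0+) and overlapping genes are named as uncertain. Alternatives were DESeq2 1.42.0, limma voom 3.58.1, other scalings and filters, single libraries left out, a replicate block, a fit of the 6 compared libraries, a fit without chromosome XII and, added after the data were seen, recentring of that chromosome.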

Additional observations from a re-analysis of the deposited data

How the results depend on the processing

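Off chromosome XII, the 2369 called genes were 2241 with DESeq2, 2370 with limma voom, 2351 with RLE scaling, 2365 with upper-quartile scaling, 2357 without a filter, 2250 with a 10 CPM filter, 2543 with only the 6 compared libraries and 2340 without chromosome XII, where 1136 were higher and 1204 lower. Leaving out 1 library gave 1946 to 2635, with 1029 to 1493 higher and 851 to 1142 lower. On the chromosome the range was 238 to 399, with 7 to 10 higher and 231 to 389 lower. Recentring gave 103 higher and 117 lower there, since it subtracts the shift of the whole chromosome. Without 1 library, the W81A strain against wild type had 1151 to 1841 calls (523 to 873 higher, 618 to 968 lower), the deletion strain against wild type 2152 to 2813 (938 to 1206 higher, 1159 to 1607 lower), and the gene lists together 489 to 636. Replicate numbers are shared across groups but were not taken to pair the libraries, since same-numbered deviations correlated at 0.208, 0.061 and -0.031, and with the replicate block 2338 genes were called off the chromosome. Uncalled genes whose sign changed were GCN4 (0.05) and HIS3 (-0.06) without deletion replicate 1 and RPN4 (0.03) without W81A replicate 3, and with 1 library left out they ranged from -0.17 to 0.05, -0.06 to 0.14 and -0.07 to 0.03. The median of all genes moved by less than 0.1 log2 units under every scaling tried. Labels do not say whether libraries of a group were separate cultures, and at this depth genes below the filter were not compared.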
